A study of Homo sapiens with 3 samples.

Results

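The genes described here are 10 of the 32738 genes counted in chambered cardiac organoids (CCOs): the neuropeptide precursors GAL, NPY, SST, TAC1 and NMB, the granin-like precursor VGF, and the neuronal cytoskeletal and growth genes STMN2, PRPH, GAP43 and NEFM. They were listed because they mark cardiomyocyte, stromal or mesoderm groups of cells in these same libraries, so their levels by group and day are given as a description and no test is made of them. CCOs are hollow, beating structures grown from H7, a line of human embryonic stem cells, by modulation of Wnt signalling and growth factors. They were dissociated on D8, D14 and D21 of differentiation, and 1 droplet single-cell RNA library was made per day. By the paper's methods the culture changed on D14. Before it the medium held growth factors, WNT3A and EDN1, and after it the organoids were in spinner flasks in a medium without them. The number of organoids behind a library is not given in the sources used here, and all 3 libraries come from a single cell line. What belongs to the day, to the change of culture and to the library cannot be told apart.

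Neuropeptides are cut from longer precursor proteins at pairs of basic residues by prohormone convertases, trimmed by carboxypeptidases, often amidated at their C-terminus, and released from dense-core vesicles to act on G-protein-coupled receptors. In the adult heart they are known mainly from autonomic and sensory nerve fibres: NPY is stored with noradrenaline in sympathetic endings, galanin is made by sympathetic neurons after injury, and TAC1 gives substance P in sensory fibres. Peripherin (PRPH) and the medium neurofilament subunit (NEFM) are intermediate filament proteins of axons, while stathmin-2 (STMN2) and GAP43 act on microtubules and membrane at growing nerve endings.

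The coding stretches that give the mature peptides show what a transcript of each precursor would encode. Each runs 5′ to 3′, was read from GENCODE v29 transcripts on GRCh38, and lies in coding exons. Capitals mark the codons of the cleavage and amidation sites that flank the peptide, and lower case marks the peptide itself. The SST transcript has 2 exons and the stretch, chr3:187669068-187669115 on the minus strand, is in exon 2; its 14 codons after the capitals encode somatostatin-14. The TAC1 transcript has 7 exons, with substance P (11 codons, chr7:97733771-97733812, plus strand) in exon 3 and neurokinin A (10 codons, chr7:97734846-97736339, plus strand) joined from exons 5 and 6. That of GAL has 6 exons and galanin (30 codons, chr11:68685603-68688069, plus strand) is joined from exons 3 and 4. That of NPY has 4 exons and the peptide (36 codons, chr7:24285325-24289511, plus strand) is joined from exons 2 and 3.
Somatostatin-14: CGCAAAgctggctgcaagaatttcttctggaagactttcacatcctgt
Substance P: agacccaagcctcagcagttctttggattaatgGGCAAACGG
Neurokinin A: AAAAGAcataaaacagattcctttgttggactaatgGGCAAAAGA
Galanin: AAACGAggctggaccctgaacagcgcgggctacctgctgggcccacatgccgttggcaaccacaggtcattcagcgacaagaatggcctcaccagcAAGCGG
Neuropeptide Y: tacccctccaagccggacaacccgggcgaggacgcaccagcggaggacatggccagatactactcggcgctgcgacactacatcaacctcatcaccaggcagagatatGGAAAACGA

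Unique molecular identifiers (UMIs), which count captured RNA molecules, were summed over the cells of a day or cluster and expressed as counts per 1000000 UMIs (CPM). Barcodes were kept as cells where they held between 2000 and 7500 genes and less than 10% mitochondrial UMIs, leaving 2657 for D8 (46767738 UMIs), 3585 for D14 (50247286 UMIs) and 1946 for D21 (30898727 UMIs). The median cell held between 12282 and 15316 UMIs. Brackets give exact 95% intervals, which cover counting error only, and not the spread between cultures, for which there is no replicate. Of the D21 barcodes, 7203 of 9149 were removed, 1982 of them by the mitochondrial limit alone. Kept cells of D8 and D14 shared 14 barcode sequences, those of D14 and D21 shared 10 and those of D8 and D21 shared 9. Clustering of all days together, made without the members and the listed genes, gave 17 clusters. These were named only where markers of a class led them: 6 is CM-like on D8, 1 on D14, and 5 and 16 on D21; 2 and 4 are fibroblast-like on D14 and 3 on D21; 7, 9 and 14 are dividing cells; 13 is endothelial-like; and 10 is hepatic endoderm-like. The others carry a number alone.

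The label of a mesodermal set held for some of these genes and not for others. TAC1 and STMN2 reached their highest level in fibroblast-like cluster 3 and GAP43 in endothelial-like cells. NEFM was highest on D14 in cluster 2, whose fibroblast-like name rests on 3 of 8 markers. That cluster had NKX2-5, of the cardiac progenitor list, at 417 CPM and the fibroblast marker DCN at 3.84 CPM. NPY on D8 and D14, and SST on D14, were highest in cluster 8, an epithelial cluster in which 7 of 8 foregut endoderm markers were high on D8 (EPCAM 681 CPM, FOXA2 132 CPM). GAL was highest on D14 in cluster 11, which had POU5F1 at 147 CPM, SOX2 at 62.7 CPM and TFAP2A at 217 CPM, and on D21 in hepatic endoderm-like cells. PRPH on D14 was highest in cluster 0, and NMB and VGF on D8 in cluster 12, whose leading genes included NPPB, NDRG1 and MT2A. The leading genes of cluster 0 included EBF2 and TSHZ2, but were taken on its D8 cells. In its D14 cells EBF2 was at 42.7 CPM, against 42.9 CPM in cluster 4, and TSHZ2 at 29.4 CPM, against 187 CPM in cluster 2. For SST the order turned in 2 of 6 other clusterings, where a cluster made mostly of cells of cluster 4 came first (410 and 342 CPM). The set is therefore called here by its genes.

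**Figure D1:**
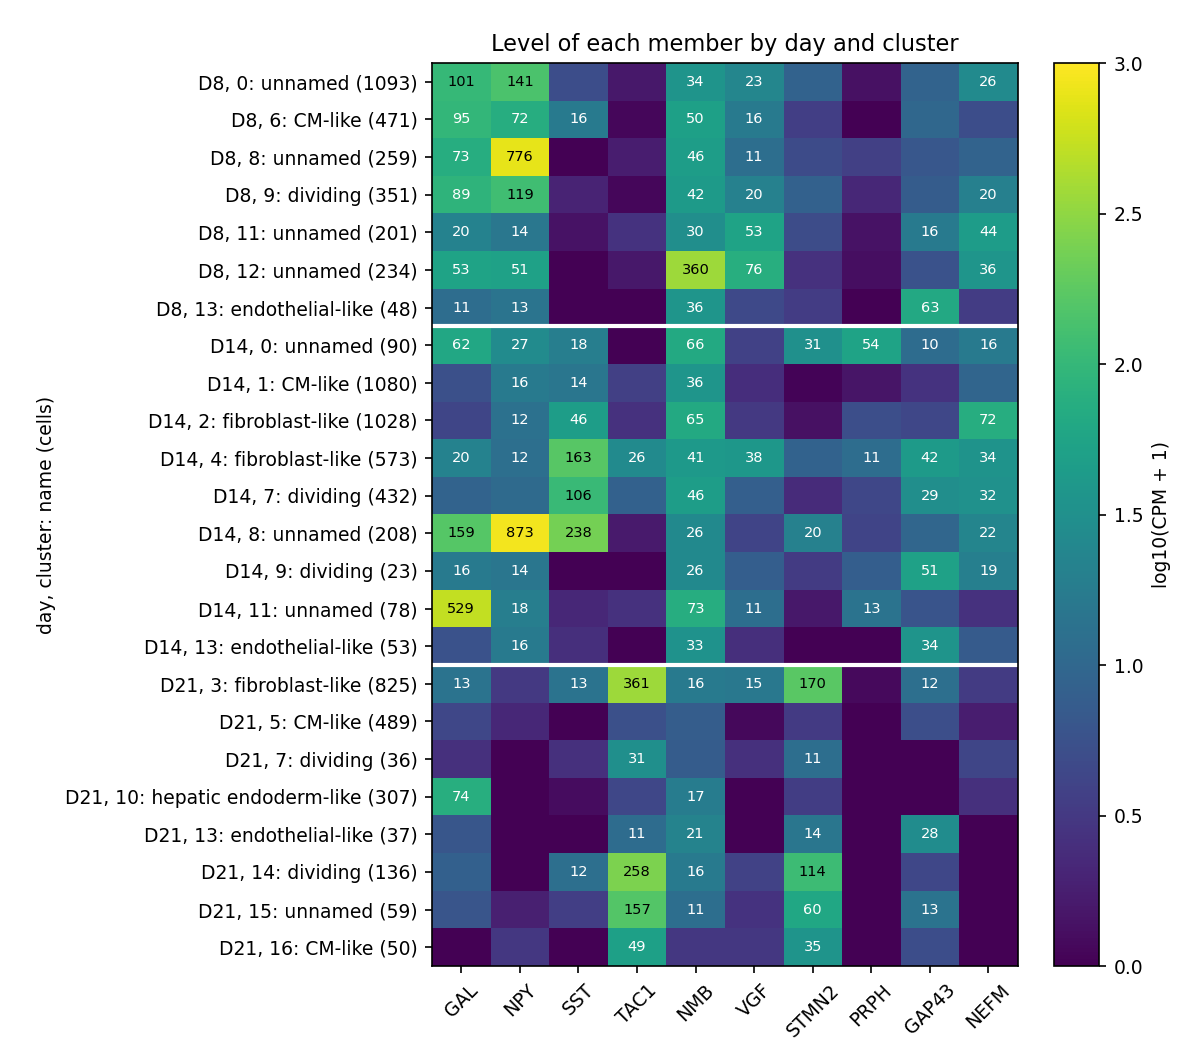
Level of each of the 10 genes (columns) in each cluster with at least 20 cells in a day (rows, with day, cluster number, name and number of cells); colour is log10(CPM + 1), and levels of 10 CPM or more are printed. NPY stands out in cluster 8 on D8 and D14, and TAC1 and STMN2 in fibroblast-like cluster 3 and dividing cluster 14 on D21.

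Over all kept cells the members followed 3 broad courses. GAL, NPY, NMB and VGF were highest on D8, SST, PRPH, GAP43 and NEFM on D14, and TAC1 and STMN2 on D21. From D8 to D14, 3 of the 10 were 2-fold or more higher (SST, TAC1 and PRPH), where 14.4% of the 18384 genes with 10 UMIs or more in either day were, and 2 were 2-fold or more lower (NPY and VGF), where 5.95% of those genes were. The median log2 ratio was 0.15 over the members and 0.12 over all these genes. From D14 to D21, 2 of the 10 were 2-fold or more higher (TAC1 and STMN2; 8.78% of 18241 genes) and 6 were 2-fold or more lower (NPY, SST, NMB, PRPH, GAP43 and NEFM; 22.5% of genes), with a median log2 ratio of -1.43 over the members and -0.30 over all genes. Since the members were chosen on these libraries, nothing is read from these counts against the background. In a whole library, fewer cells of a kind and less RNA per cell cannot be told apart, and the kinds of cells differed between days.

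**Figure D2:**
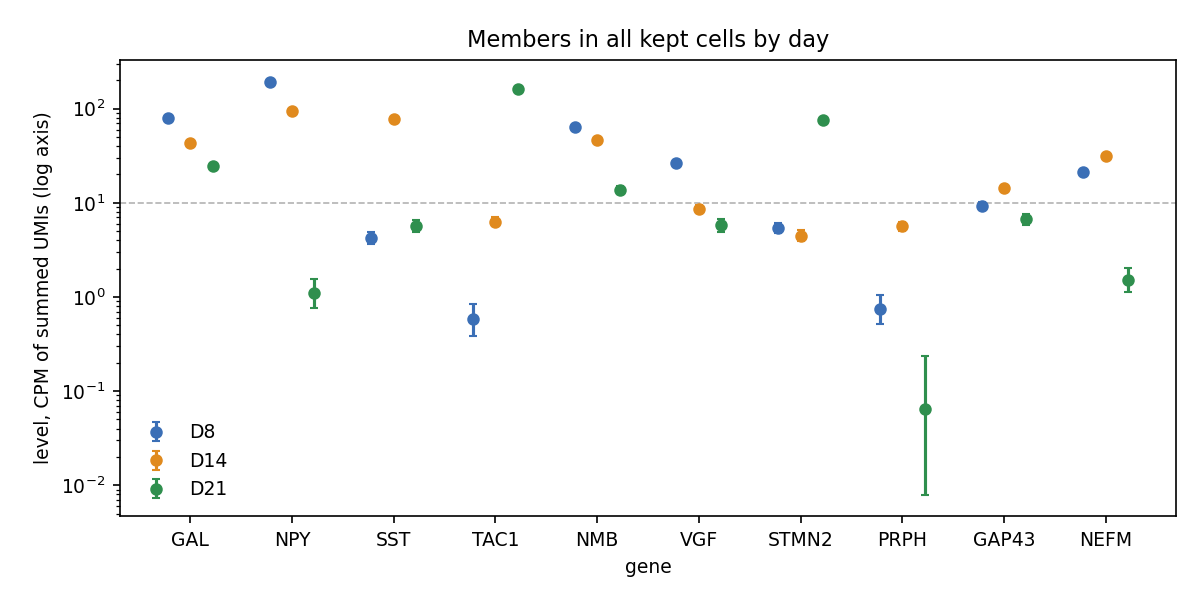
Level of each gene over all kept cells by day, in CPM on a log axis; points are the 3 libraries, bars are exact 95% Poisson intervals and the dashed line is 10 CPM. TAC1 runs from 0.577 CPM on D8 to 160.4 CPM on D21, and NPY from 193.8 CPM to 1.10 CPM.

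GAL encodes galanin. Its level over all kept cells was 80.4 CPM [77.9, 83.0] on D8, 43.1 CPM [41.3, 44.98] on D14 and 24.5 CPM [22.8, 26.3] on D21. On D8 it was broad: cluster 0 had 101.5 CPM [96.6, 106.5], CM-like cells 94.8 CPM [88.03, 102], dividing cells 89.2 CPM, cluster 8 73.3 CPM and cluster 12 53.4 CPM, while cluster 11 (20.4 CPM) and endothelial-like cells (10.8 CPM) lay lower. The intervals of cluster 0 and CM-like cells overlapped, and 2 of 6 other clusterings put a CM-like cluster first. On D14 the gene was no longer broad. CM-like cells had 4.35 CPM, a log2 ratio to D8 of -4.45 [-4.84, -4.07], while cluster 11 had 529 CPM [496, 564] and cluster 8 159 CPM [148, 171]. Those levels rested on very few cells, since 10 of the 78 cells of cluster 11 held 93.7% of its GAL UMIs, and a single cell of cluster 8 held 321 UMIs. On D21, 73.9% of all GAL UMIs were in hepatic endoderm-like cells (74.2 CPM [68.2, 80.7]), followed by fibroblast-like cells at 13.04 CPM [11.01, 15.3].

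NPY encodes neuropeptide Y. It stood at 193.8 CPM [189.9, 197.9] on D8, 95.4 CPM [92.7, 98.1] on D14 and 1.10 CPM [0.762, 1.54] on D21. Cluster 8 held 57.0% of its UMIs on D8 and 86.9% on D14, with levels of 776 CPM [755, 797] and 873 CPM [847, 900]. After each cell was thinned to 4000 UMIs, 49.0% of the cells of cluster 8 on D8 and 57.7% on D14 had an NPY UMI, against 2.08% and 7.55% of endothelial-like cells, whose median depth was 15362 and 11280 UMIs against 23570 and 20519 in cluster 8. On D8 mesodermal clusters also carried the gene, with 141 CPM [135, 147] in cluster 0, 119 CPM in dividing cells and 72.1 CPM in CM-like cells. On D14 every cluster other than 8 lay between 9.83 and 27.3 CPM, and the CM-like share after thinning (5.00%) did not exceed that of the 53 endothelial-like cells (7.55% [2.09, 18.2]). Of the 99 NPY-rich cells of D14 (10 UMIs or more), 87 were in cluster 8, and the others included a cell of cluster 4 with 42 UMIs, 48.3% of that cluster's NPY. Background and expression in single cells were not told apart outside cluster 8. On D21 cluster 8 had no cells and no cell held 10 NPY UMIs.

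SST encodes somatostatin. It had 4.23 CPM [3.66, 4.87] on D8, 78.2 CPM [75.7, 80.6] on D14 and 5.73 CPM [4.92, 6.64] on D21. On D8, 3 cells held 82.3% of its 198 UMIs. On D14 the gene had 238 CPM [224, 252] in cluster 8, 163 CPM [154, 173] in fibroblast-like cluster 4, 106 CPM in dividing cluster 7 and 46.2 CPM in fibroblast-like cluster 2, with 14.0 CPM in CM-like cells and 1 UMI in endothelial-like cells. In all of these the median cell had 0 UMIs. Only 8.20% of D14 cells had any, 63 cells with 10 UMIs or more held 87.7% of the total, and the richest cell held 382. Of those 63 cells, 20 were in cluster 8, 16 in cluster 7, 14 in cluster 4 and 9 in cluster 2. In cluster 8, 12 of the 20 SST-rich cells were also among its 87 NPY-rich cells.

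TAC1, the precursor of substance P and neurokinin A, and STMN2, which binds tubulin, were the members highest on D21. TAC1 had 0.577 CPM [0.380, 0.840] on D8, 6.31 CPM [5.63, 7.04] on D14 and 160.4 CPM [156, 165] on D21, and STMN2 5.39 CPM, 4.46 CPM and 75.1 CPM [72.1, 78.3]. The D21 levels moved with the mitochondrial limit, to 330 CPM of TAC1 and 134 CPM of STMN2 at 5% and to 95.7 and 46.6 CPM at 20%. Fibroblast-like cluster 3 held 81.6% of the TAC1 UMIs of D21 (361 CPM [350, 373]) and 82.2% of those of STMN2 (170 CPM [163, 178]) with 42.4% of the cells. Dividing cluster 14, in which 5 of 8 fibroblast markers were also high, came next with 258 CPM [238, 279] and 114 CPM [100.7, 128]. In CM-like cluster 5 the levels were 4.42 and 2.21 CPM, or 1.22% and 1.30% of those in cluster 3. For comparison AFP, a hepatic gene at 11253 CPM in cluster 10, stood at 1.43% of that level in the same CM-like cells and at 1.41% in cluster 3. MYL7, a CM marker at 24421 CPM in cluster 5, stood at 3.60% of that level in cluster 3. Whether TAC1 and STMN2 in cluster 5 were background or expression was not tested. Clusters 15 and 16 had 157 and 49.4 CPM of TAC1 and 60.1 and 35.0 CPM of STMN2. Both held genes of several classes at once, with TNNT2 at 4565 CPM and COL3A1 at 1312 CPM in cluster 15 and TNNT2 at 7663 CPM and AFP at 5366 CPM in cluster 16, and the part of doublets in them was not tested.

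Within cluster 3, cells with one of these genes had the other more often, although most cells with a UMI of one had none of the other. After thinning, 39.2% [32.6, 46.2] of the 209 cells with TAC1 had STMN2, against 23.9% [20.5, 27.4] of the 616 without, and the median depths were close at 13143 and 12511 UMIs. Cells with TAC1 more often had LUM, a small proteoglycan of stromal matrix (66.0% [59.2, 72.4] against 47.2% [43.2, 51.3]), COL1A2 (80.4% [74.3, 85.5] against 69.6% [65.8, 73.3]) and C7 (85.6% against 74.5%). They also more often had RGS5, of the smooth muscle list (67.0% against 55.4%), and EGFL7 (67.0% against 51.3%) and RAMP2 (56.5% against 43.5%), of the endothelial list. Cells with STMN2 had COL1A2 more often too (82.5% against 68.5%), and TCF21, a transcription factor of epicardium-derived fibroblasts (27.5% [21.8, 33.8] against 16.6% [13.7, 19.8]). They had MFAP4 (48.0% against 63.9%), BMP4 (21.4% against 38.3%), NKX2-5 (6.99% against 14.3%), SEMA3D (2.62% against 8.22%) and the neuronal marker DCX (1.75% against 7.05%) less often. These markers were picked from all the fixed class lists because their intervals did not overlap.

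**Figure D3:**
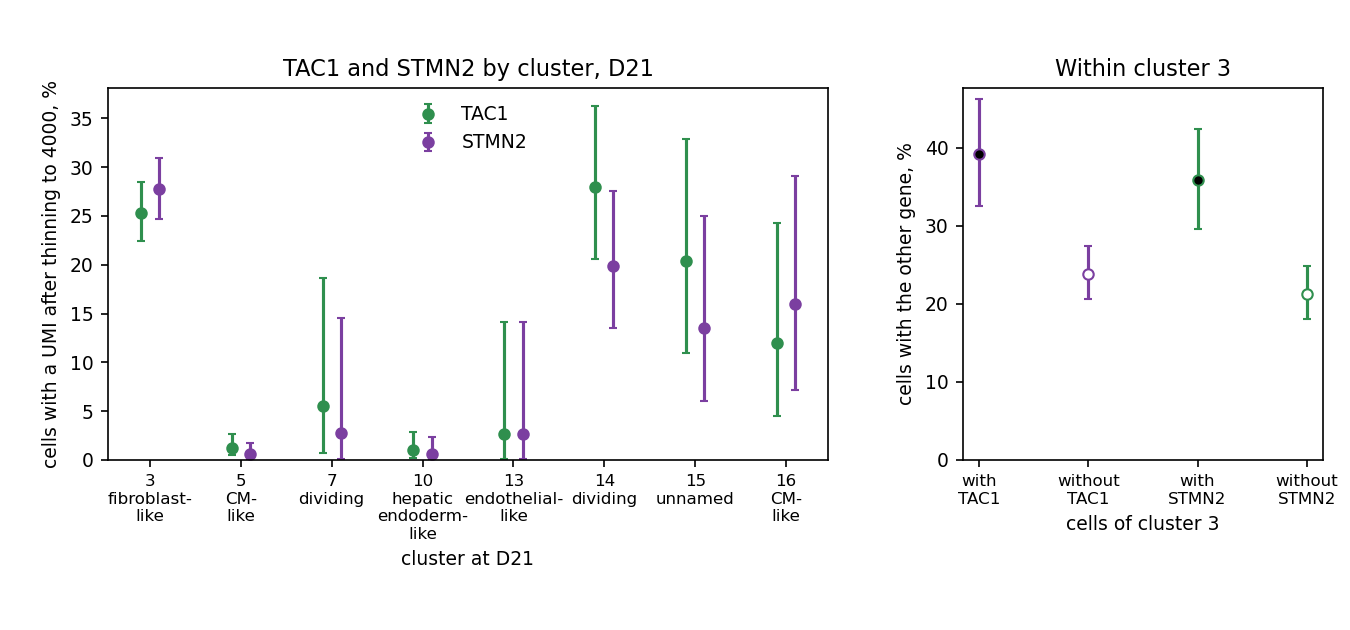
Left, percent of cells with a TAC1 or STMN2 UMI after thinning to 4000 UMIs, by cluster on D21; right, percent of cells of cluster 3 with the other gene (purple STMN2, green TAC1), in cells with (filled) and without (open) the first. Bars are exact 95% binomial intervals. TAC1 was in 25.3% and STMN2 in 27.8% of the cells of cluster 3, and in 1.23% and 0.613% of those of CM-like cluster 5.

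NMB encodes neuromedin B, a bombesin-like peptide. It had 63.9 CPM [61.6, 66.2] on D8, 46.1 CPM [44.3, 48.05] on D14 and 13.8 CPM [12.5, 15.1] on D21. On D8, cluster 12 had 360 CPM [341, 380] and the next, CM-like cells, 49.6 CPM [44.7, 54.9]. Over 6 other clusterings the highest cluster had 93.1 to 341 CPM, lowest where cells of cluster 12 were 17.5% of it. In cluster 12, 40 cells had 10 UMIs or more, of 55 in the whole library, and 40.6% of its cells had a UMI after thinning, against 9.45% to 15.1% elsewhere. Cells of cluster 12 with NMB had COL1A1 more often than those without (57.9% [47.3, 67.96] against 37.4% [29.4, 46.0]), and HSPB7 likewise (25.3% against 7.19%), the 2 markers of all class lists whose intervals did not overlap there. On D14 NMB was the most even of the members, between 25.6 and 72.8 CPM in 9 clusters, 65.4 CPM in fibroblast-like cluster 2 and 35.98 CPM in CM-like cells, and the intervals of the highest pair, clusters 11 and 0, overlapped. On D21 no cell had 10 UMIs.

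VGF, a secreted neurotrophin-induced precursor that is cut into several peptides, had 26.6 CPM [25.2, 28.1] on D8, 8.66 CPM [7.86, 9.51] on D14 and 5.76 CPM [4.95, 6.67] on D21. On D8 it was highest in cluster 12 (75.8 CPM [67.1, 85.4]) and then in cluster 11 (53.4 CPM [47.2, 60.1]), but in 3 of 6 other clusterings the highest cluster, at 52.8 to 53.7 CPM, had under 1% of its cells from cluster 12. Cluster 0 had 22.7 CPM and CM-like cells 15.8 CPM. On D14, 65.1% of its UMIs were in fibroblast-like cluster 4 (37.6 CPM [33.3, 42.2]), and on D21, 93.3% were in fibroblast-like cluster 3 (14.8 CPM [12.7, 17.3]). In CM-like cells it had 1.45 CPM on D14, a log2 ratio to D8 of -3.45 [-4.19, -2.77]. In cluster 0 on D8, 14.4% [9.95, 19.9] of cells with GAL had VGF after thinning, against 5.76% [4.32, 7.51] of those without. Most cells with GAL thus had no VGF, and the pair is given out of many compared. There GAP43 was likewise more frequent in cells with GAL (5.77% [3.02, 9.86] against 1.58% [0.867, 2.64]). In CM-like cells of D8 the intervals for GAL and VGF overlapped (10% [4.90, 17.6] against 3.77% [2.08, 6.25]).

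PRPH was a gene of D14, with 0.748 CPM [0.521, 1.04] on D8, 5.63 CPM [4.995, 6.33] on D14 and 2 UMIs in the whole D21 library. The 90 D14 cells of cluster 0 had 53.9 CPM [42.5, 67.3], followed by cluster 11 at 12.99 CPM and cluster 4 at 10.9 CPM. The D8 cells of the same cluster 0 had 0.376 CPM. After thinning, 16.7% [9.64, 26.0] of the D14 cells of cluster 0 had a UMI, and its UMIs were spread, with 12.99% of them in the only cell that held 10. By contrast, the STMN2 level of those cells, 30.8 CPM, rested on 1 cell with 41 of 44 UMIs.

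GAP43 had 9.19 CPM [8.35, 10.1] on D8, 14.4 CPM [13.4, 15.5] on D14 and 6.70 CPM [5.82, 7.68] on D21. Endothelial-like cells held it on every day, as they did NMB, at 63.3 CPM [47.4, 82.8] in 48 cells, 34.3 CPM [21.5, 51.9] in 53 and 28.1 CPM [16.1, 45.6] in 37. On D14 fibroblast-like cluster 4 had 41.9 CPM [37.4, 46.8] and dividing cluster 9 51.1 CPM [32.0, 77.4] in 23 cells, and these intervals overlapped. CM-like cells had 8.97 CPM on D8, 1.73 CPM on D14 and 4.38 CPM on D21.

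NEFM had 21.4 CPM [20.1, 22.7] on D8, 31.6 CPM [30.1, 33.2] on D14 and 1.52 CPM [1.12, 2.02] on D21. On D8 it was highest in cluster 11 (44.2 CPM [38.6, 50.3]) and cluster 12 (35.7 CPM [29.7, 42.4]), whose intervals overlapped, with 26.4 CPM in cluster 0 and 4.09 CPM in CM-like cells. On D14 fibroblast-like cluster 2, which had ISL1 at 203 CPM, HAND2 at 565 CPM and COL3A1 at 1133 CPM, held 52.1% of its UMIs at 72.2 CPM [67.4, 77.3]. The fibroblast-like name of that cluster rests on 3 of 8 markers, and it had NKX2-5 at 417 CPM, DCN at 3.84 CPM and LUM at 6.28 CPM. Cells of cluster 2 with NEFM had MFAP4 more often (59.3% [49.9, 68.3] against 44.3% [41.0, 47.6]) and MYH6 less often (32.2% [23.9, 41.4] against 49.9% [46.6, 53.2]) than those without. Of all class lists, the other markers whose intervals did not overlap were TNNT2, HSPB7, SMPX, CNN1, RGS5 and ISL1, each less frequent in cells with NEFM. On D21 no cluster reached 10 CPM.

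Fibroblast-like cluster 4 on D14 held several members, and a finer clustering, at a resolution of 1.2, divided them between its cells. Of its 573 cells, 231 fell in a cluster of their own, which had SST at 441 CPM [416, 466], GAP43 at 90.4 CPM [79.4, 102.5], NEFM at 73.3 CPM [63.4, 84.3] and PRPH at 29.4 CPM [23.3, 36.6]. In the other 342 cells the same genes had 9.69, 15.1, 11.8 and 0.619 CPM. These 342 cells had instead VGF at 56.1 CPM [49.6, 63.2], TAC1 at 40.0 CPM [34.6, 46.0] and GAL at 29.5 CPM [24.9, 34.7], against 4.09, 0.744 and 3.72 CPM in the 231. Few cells carried these levels, since 2 cells held 55.4% of the SST UMIs of cluster 4, 61.4% of those of GAL and 35.7% of those of VGF. COL3A1 was at 718 CPM in the 231 cells and 1488 CPM in the 342. The split followed EBF2 (109 against 6.39 CPM) on the SST side and MGP, a calcification inhibitor of stromal matrix (39.4 against 362 CPM), on the TAC1 side. TFAP2A, of the surface ectoderm list (62.5 against 4.95 CPM), and ELAVL4, a neuronal marker (12.7 against 5.16 CPM), were also higher on the SST side, and LUM (13.4 against 78.98 CPM) and DCN (4.84 against 25.4 CPM) lower. The split-off cluster met too few markers of any class to be named. Of the granins, CHGB was with TAC1 and VGF at 34.2 CPM against 1.49 CPM. The members and the granins took no part in that clustering, and EBF2, TFAP2A, ELAVL4, LUM, DCN and MGP were chosen after their values were seen. When all variable genes were kept, a cluster of 287 D14 cells, 223 of them from cluster 4 and 60 from cluster 0, had SST at 342 CPM [323, 362], GAP43 at 72.6 CPM, NEFM at 60.9 CPM and PRPH at 43.4 CPM.

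SST and VGF, which lay in opposite subsets of cluster 4, are the members whose promoters hold the cAMP response element TGACGTCA. It was searched as those letters, which read the same on both strands, in the window from 250 bases before to 50 after each gene's start. The RefSeq table of GRCh38.p14 held 7 of the 10 members, without GAL, STMN2 and NEFM. Of the 7, 2 had the element, where 1.85% of all 35116 promoters had it. Members were counted by gene and the background by promoter. The letters TATAAA and CCAAT were searched too, on both strands. They were in 3 of the 7 each, against 11.5% and 34.6% of promoters. The stretches run 5′ to 3′ from 20 bases before the element, in capitals, to the base before the start, at chr3:187670395-187670461 (minus strand) for SST and chr7:101165570-101165668 (minus strand) for VGF. The match is a description of the letters.
SST: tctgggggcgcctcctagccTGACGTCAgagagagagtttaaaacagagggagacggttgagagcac
VGF: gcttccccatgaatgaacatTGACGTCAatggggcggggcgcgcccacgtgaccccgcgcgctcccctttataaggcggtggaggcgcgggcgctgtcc

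The members differed in how many cells held their RNA. GAL on D14 and SST on D14 were the most concentrated of the gene and day pairs plotted, with 76.1% of all UMIs in 18 cells for GAL and 57.9% in 18 cells for SST. TAC1 on D21 had 49.7% of its UMIs in 39 cells, and NPY on D8 50.04% in 53. NMB on D14 and GAL on D8 were spread, with 40.8% and 49.0% of their UMIs in the top 5% of cells. After thinning to 4000 UMIs, the share of cells in which any of the 5 neuropeptide precursors was seen was 45.2% [43.3, 47.2] on D8, 27.1% [25.7, 28.6] on D14 and 20.5% [18.7, 22.4] on D21. With a mitochondrial limit of 5% the D14 and D21 shares were 29.5% and 30.3%, and with 2 UMIs required 10.3% and 10.8%, so the order of those days turned. Without thinning the shares were 74.3%, 51.1% and 38.6%. The lowest share in a cluster on each day was 20.4% in cluster 11 on D8, 17.4% in the 23 cells of dividing cluster 9 on D14 and 3.68% in CM-like cluster 5 on D21. Cells with 2 or more of the 5 made up 8.73%, 2.73% and 1.44%.

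**Figure D4:**
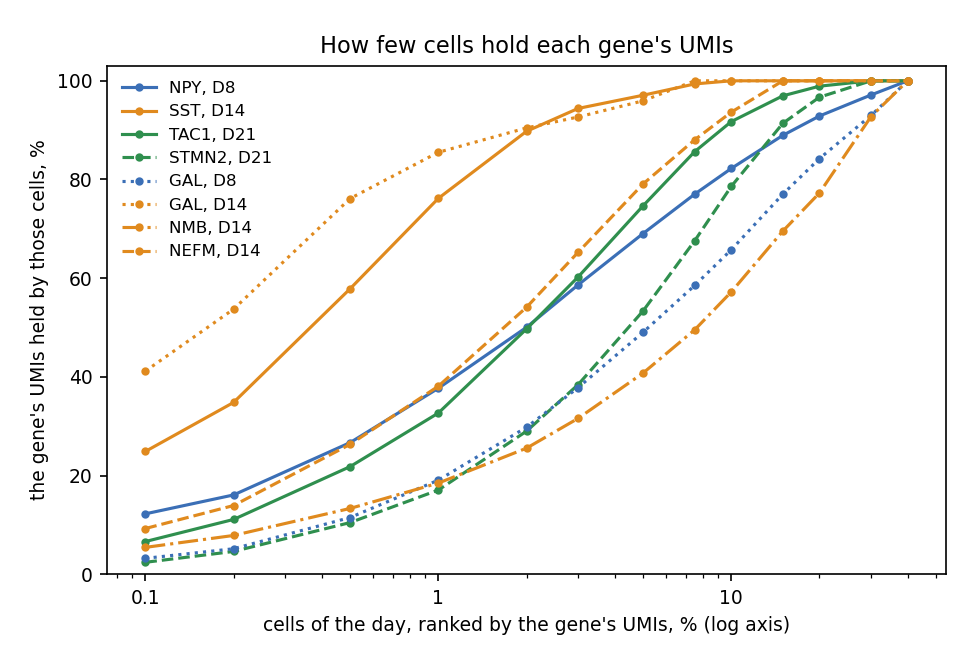
Percent of a gene's UMIs (vertical axis) held by the given percent of the day's cells, ranked from the cell with most UMIs of the gene (horizontal, log axis); colour is the day. GAL and SST on D14 lie highest, with 85.5% and 76.2% of their UMIs in 1% of cells, and NMB on D14 lies among the lowest.

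In CM-like cells the number of members at 10 CPM or more was 5 on D8 (GAL, NPY, SST, NMB and VGF), 3 on D14 (NPY, SST and NMB) and 0 on D21, where 24.8%, 26.6% and 23.9% of all genes reached that level. The SST level of CM-like cells on D8, 16.4 CPM [13.6, 19.5], came to 88.7% from 2 of 471 cells, and that on D14, 13.96 CPM, to 54.5% from 2 of 1086. The D14 share of CM-like cells with NPY did not exceed that of endothelial-like cells. From D8 to D14 in CM-like cells, GAL, NPY, VGF, STMN2 and GAP43 were 2-fold or more lower (5 of the 9 members with 10 UMIs; 4.21% of genes), and NEFM and TAC1, the latter from 1 UMI on D8, 2-fold or more higher (16.5% of genes). From D14 to D21 in these cells 3 members were 2-fold or more higher (TAC1, STMN2 and GAP43; 6.07% of genes) and 5 lower (24.7% of genes). Of the D21 UMIs, 24 of 54 for TAC1 and 17 of 32 for STMN2 were in the 50 cells of cluster 16, which held genes of several classes. In cluster 5, background and expression were not told apart. In fibroblast-like cells 8 members reached 10 CPM on D14 (26.3% of genes), with STMN2 and PRPH below it, and 7 on D21 (23.8% of genes), with NPY, PRPH and NEFM below it. Between those days 2 members were 2-fold or more higher in fibroblast-like cells (7.25% of genes) and 5 lower (22.6% of genes). TAC1 went from 11.3 to 361 CPM in fibroblast-like cells, a log2 ratio of 5.00 [4.80, 5.21], and STMN2 from 3.77 to 170 CPM, a log2 ratio of 5.50 [5.16, 5.86]. NEFM went from 56.7 to 2.32 CPM (log2 ratio -4.61 [-5.23, -4.05]) and SST from 92.3 to 12.8 CPM (log2 ratio -2.85 [-3.11, -2.61]). The SST levels rested on few cells, since 2 of 1604 fibroblast-like cells held 38.75% of the D14 UMIs and 2 of 826 held 65.0% of those of D21. Of the 1760 SST UMIs of D14, 1184 were in the 231 cells split from cluster 4, whose finer cluster was not named. Different clusters hold the fibroblast-like class on the 2 days, 2 and 4 on D14 and 3 on D21. Cluster 2 differed from cluster 3 in DCN (3.84 against 174 CPM), LUM (6.28 against 504 CPM) and NKX2-5 (417 against 49.2 CPM). These ratios thus compare unlike cells. In dividing cells 4 members were 2-fold or more higher (11.2% of genes) and 4 lower (4.65% of genes) from D8 to D14, and 2 higher (5.9% of genes) and 7 lower (16.7% of genes) from D14 to D21. Of the 3 members with 10 UMIs in endothelial-like cells, 0 were 2-fold or more apart from D8 to D14 (5.58% of genes higher and 11% lower), and 0 were higher (15.8%) and 1 lower (14.5%) from D14 to D21.

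Markers of neurons, neural crest and neuroendocrine cells were looked for in the cells rich in a member, meaning 10 UMIs or more of it. The neuron list (ELAVL3, ELAVL4, RBFOX3, SYT1, SNAP25, DCX, SYP and STX1A) summed to between 22.6 and 71.6 CPM in 10 such sets of cells, and was above the level of all kept cells of the day in 4 of them. It was 22.6 CPM in the 137 TAC1-rich cells of D21 against 27.9 CPM in all, and 44.5 CPM in the 63 SST-rich cells of D14 against 50.1 CPM. NEFM-rich cells of D14 had the highest sum, 71.6 CPM against 50.1 CPM. ELAVL3, ELAVL4 and RBFOX3 stayed under 10 CPM in each of the 17 clusters, although ELAVL4 reached 12.7 CPM [8.76, 17.7] in the 231 SST-high cells split from cluster 4. The rest of the list passed 10 CPM in a cluster. DCX had 38.1 CPM in cluster 2 on D14, and SYP 33.1 CPM and STX1A 11.2 CPM in cluster 12 on D8. SYT1 had 27.5 CPM in endothelial-like cells of D8, and SNAP25 11.3 CPM in CM-like cells of D14. ELAVL3 and ELAVL4 were at 0 in the TAC1-rich cells. All kept cells of D21 together held only 1 UMI of ELAVL3 and 0 of ELAVL4, so nothing is read from those zeros. Of the 11 neural crest and glia markers, FOXD3, TH and DBH were at 0 in every one of the 10 sets. Each of them had at most 9 UMIs over all kept cells of a day, so those zeros say little. The summed level of the list ran from 3.37 to 88.3 CPM. It was highest in the GAL-rich cells of D21, of which 14 of 18 were hepatic endoderm-like, where ERBB3 had 75.2 CPM. The neuroendocrine list summed to at most 11.5 CPM, in the NEFM-rich cells, and INSM1, NEUROD1, NEUROG3 and PCSK1 had no UMI in any kept cell.

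**Figure D5:**
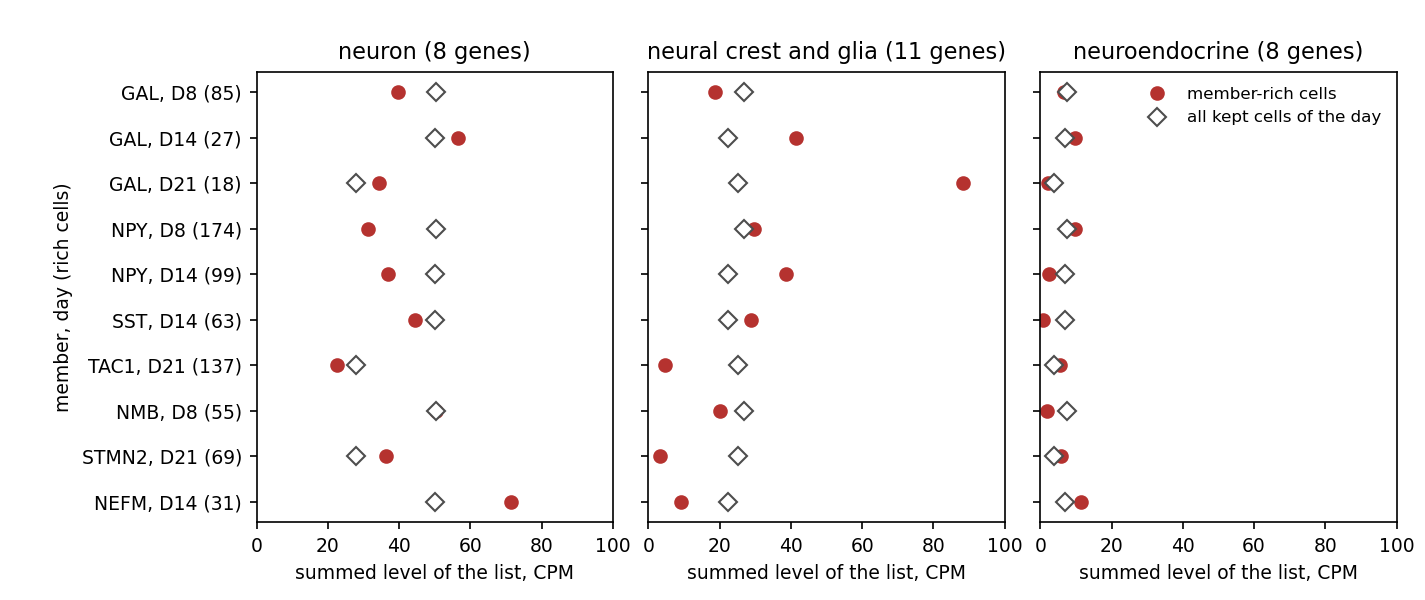
Summed level of the neuron, neural crest and glia, and neuroendocrine marker lists, in CPM, in cells with 10 UMIs or more of a member (red circles; number of cells in brackets) and in all kept cells of that day (open diamonds). For neuron markers the circles lie within 22.6 to 71.6 CPM, on both sides of the diamonds.

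The genes that would receive, process and store these peptides were measured as fixed lists, by whether they reached 10 CPM (in all kept cells 24.9%, 26.9% and 24.9% of genes did on D8, D14 and D21). None of the 16 receptors for galanin, NPY, somatostatin, tachykinins and neuromedin B reached it on any day or in any cluster, and their summed level was between 3.40 and 5.31 CPM over whole days and at most 10.9 CPM in a cluster, cluster 8 on D14. The highest was SSTR2, a somatostatin receptor, at 8.11 CPM in cluster 8 on D8. TACR1, the substance P receptor, had 56 UMIs on D21 and NMBR 1 UMI in all. Of the 7 processing genes, 4, 5 and 4 reached 10 CPM over all kept cells of D8, D14 and D21. The share of all genes that reached it in some cluster was not computed. The processing genes that did were CPE (carboxypeptidase E, 230 CPM in CM-like cells of D8), PAM (the amidating enzyme, 269 CPM in CM-like cells of D21), FURIN, SCG5 (48.2 CPM in cluster 8 on D14) and PCSK1N (775 CPM in hepatic endoderm-like cells). PCSK2, the neuroendocrine convertase, did not, and PCSK1 had no UMI. Of 4 granins of dense-core vesicles, CHGB reached 22.6 CPM in cluster 4 on D14, SCG2 12.4 CPM in cluster 3 on D21 and SCG3 10.4 CPM in cluster 11 on D8, while CHGA did not reach 10 CPM.

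Among related cytoskeletal genes, of which 9 of 10 were in the table, STMN1, the widely expressed stathmin, was at 424 to 479 CPM over all cells by day, where STMN2 differed 16.9-fold [14.7, 19.4] between D14 and D21. BASP1, a growth-associated protein like GAP43, was at 169, 197 and 36.9 CPM. The neurofilament partners INA and NEFH reached at most 12.3 and 10.5 CPM in a cluster, NEFL was not analysed here, and no UMI was counted for TUBB3, for which it was not tested whether the annotation used could count it. Of 10 neurotrophins and receptors, NGFR (the p75 receptor, 67.1 CPM in CM-like cells of D14) and NTRK2 (45.2 CPM in cluster 11 on D14) were highest. REST, which represses neuronal genes in other cells, was above 38.2 CPM in every cluster and day, at 84.0, 84.3 and 68.4 CPM over all kept cells, and all 6 genes of REST and its cofactors were at 10 CPM or more on each day.

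The genes most like each member over the 20 day and cluster groups with at least 50 cells were found by Pearson's r of log2(CPM + 10) among 5254 genes, as a description over groups that share libraries. TAC1 was followed most closely, with r = 0.99 for DCN and 0.98 for COLEC11 and SUCNR1, and STMN2 went with TCF21 (0.93), HGF (0.91) and TAC1 (0.88). NMB went with CXorf40B (0.92), EFNA3 (0.89) and RAB20 (0.88), and NPY with BEX5 (0.86), CST1 (0.85) and WFDC2 (0.85). NEFM was most like PRR7 (0.85), CRABP1 (0.81) and UNC119 (0.79), and GAP43 most like DCBLD1 (0.82), LAYN (0.81) and TMEM100 (0.80). The nearest to GAL were FLRT3 (0.83), KRT19 (0.77) and RPS27A (0.75), and to SST MECOM (0.78), THBS1 (0.77) and BAMBI (0.75). Those of VGF included FGFBP3 (0.83) and XRN2 (0.79), and those of PRPH were WARS (0.80), RARRES3 (0.79) and PLSCR2 (0.79).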

How the data were processed

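A single unfiltered table of UMI counts, genes by cell barcodes, was deposited by the authors for the 3 libraries; per the labels' processing notes, Cell Ranger (version not given) and the hg19 build were used, with Seurat 3.2.1. The kit counted transcript 3′ ends. The members and lists were chosen with earlier results of these data known. Cells were filtered as stated and clustered with Seurat 5.3.0 in R 4.3.3 (log-normalization to 10000, 2000 variable genes less the members, listed genes and neural markers, 20 components, resolution 0.8, no integration). A cluster took a class name if 3 or more of its markers exceeded the day's other cells by 2-fold (10 CPM added), with a lead of 2 markers, and stayed unnamed when its 10 leading genes tied or favoured another class; these thresholds were set after seeing the data. Doublets were not called and were kept; the 5% of cells with the most UMIs were left out as an alternative. CPM intervals are exact Poisson, ratio intervals come from the split of 2 sums and shares are Clopper-Pearson (scipy 1.17.1). With 1 library per day no test was run. Genes named are the members, the fixed lists, the 3 most alike genes per member and markers. Some genes these rules name are not reported here. On data simulated from the D14 profile for 17756 genes at the depths of D8 and D21, 95.7% of ratio intervals held the true value. That bears on counting error only, and not on genes whose UMIs lie in few cells. TMM factors are from edgeR 4.0.16.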

Additional observations from a re-analysis of the deposited data

Results flagged for a closer look

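Between the same days, 6 members were higher in one group of cells and lower in another, each with a 95% counting interval off 0. The share of all genes that did so was not computed, so nothing is read from that count. The value given is the difference of the log2 ratios in the groups farthest apart, and the difference itself was not tested. From D8 to D14 it was 9.14 for GAL (4.70 in cluster 11 against -4.45 in CM-like cells), 7.61 for STMN2 (2.35 in cluster 8 against -5.25 in CM-like cells, where D14 had 1 UMI) and 6.16 for NEFM (1.45 in cluster 8 against -4.70 in cluster 11). It was 4.59 for GAP43 (2.22 in dividing cells against -2.38 in CM-like cells), 3.74 for NPY (0.17 in cluster 8 against -3.56 in dividing cells) and 2.13 for NMB (1.30 in cluster 11 against -0.83 in cluster 8). From D14 to D21 it was 4.87 for GAP43 (1.34 in CM-like cells against -3.53 in dividing cells), the reverse order of its earlier step. The dividing cells of the 3 days are mainly clusters 9, 7 and 14. Few cells lay behind some of these ratios. On D14, 10 of the 78 cells of cluster 11 held 10 GAL UMIs or more, and 3 of the 208 cells of cluster 8 held 10 STMN2 UMIs or more. The counting intervals do not cover the spread between cells.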

How the results depend on the processing

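No paired analysis was possible because each day has 1 library. The counts of members 2-fold or more apart between days kept their values within 1.5 times, except that the 2 lower from D8 to D14 became 1 with a mitochondrial limit of 5% and 1 at 3-fold. With that 5% limit the log2 ratio of STMN2 from D8 to D14 was 0.00126 instead of -0.27, and that of VGF from D14 to D21 0.0276 instead of -0.59. The shares of cells with a neuropeptide UMI at D8, D14 and D21 were 74.3%, 51.1% and 38.6% unthinned, 21.9%, 10.3% and 10.8% for at least 2 UMIs and 38.7%, 22.3% and 17.99% at 3000 UMIs. With the 5% limit they were 29.5% at D14 and 30.3% at D21, and with a limit of 20%, 13.6% at D21. At a resolution of 0.4, 2 members instead of 0 reached 10 CPM in CM-like cells at D21, and 4 instead of 8 did so in fibroblast-like cells at D14 at a resolution of 1.2 or with all variable genes kept. At 5 CPM, 32 instead of 21 listed genes passed at D14. The cause was not tested. In all barcodes of D21 TAC1 had 84.1 CPM and STMN2 43.9 CPM. With 37 to 53 endothelial-like cells a day, 3 UMIs amount to 3.58 to 5.27 CPM, so lower values there are under that limit.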

Other observations

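Of 26 other neuropeptide precursors, 8 reached 10 CPM in a cluster. NPW, the neuropeptide W precursor, stood over all kept cells at 45.2 CPM on D8, 136 CPM on D14 and 108 CPM on D21, with 262 CPM [250, 274] in fibroblast-like cluster 4 at D14, and at least 10.8 CPM in every cluster. NTS, the neurotensin precursor, had 251 CPM [206, 303] in the 23 dividing cells of cluster 9 at D14 and 37.1 CPM over all cells of D21. TRH, the thyrotropin-releasing hormone precursor, had 78.9 CPM [58.4, 104] in the 36 dividing cells of cluster 7 at D21 and 16.2 CPM over that day, and PENK, the enkephalin precursor, 35.7 CPM [26.6, 46.9] in cluster 0 at D14. The other 4 were TAC3, CALCB, NMU and CALCA, at 34.7, 29.9, 27.4 and 18.9 CPM in their highest clusters.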
